A study of Mus musculus with 2 samples.

Results

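The genes described here are 56 mouse genes that copy the genome or control entry into S phase. They were picked by symbol for their roles, from the origin recognition complex to chromatin assembly, with earlier results of these data known. They were looked up in a comparison of the distal with the proximal side of limb-mesenchymal organoids. Of the 56 genes, 55 were among the 13916 protein-coding genes of the authors' deposited table. Chaf1a, which encodes the large subunit of the histone chaperone CAF-1, was not in the table and counts as not detected.

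DNA replication is prepared in G1, when the origin recognition complex, Cdc6 and Cdt1 load the MCM2-7 helicase onto origins. Cyclin-dependent kinases and the Cdc7-Dbf4 kinase then convert the loaded helicase, with Cdc45 and the GINS complex, into a moving replication fork. Many of these genes are transcribed under E2F factors, so that their mRNAs are most abundant around the start of S phase. In the limb bud, growth signals of the FGF and WNT families from the ectoderm keep the distal mesenchyme dividing as the limb grows out.

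Both groups came from the same starting material, embryonic limb mesenchyme of Slc:ICR mice, grown into organoids over 48 h in medium supplied with Fgf8b plus Wnt3a and snap-frozen on day 2. The groups differed in the area of the section that was lit, distal in one and proximal in the other. Reverse transcription with caged primers was run in 10 µm sections fixed with 4% PFA, and light of 365 nm for 3 min released the cDNA of the chosen area (photo-isolation chemistry). Each side was 1 library pooled from 5 barcoded regions, and the 5 organoids came from 4 cultures, so side and library are the same split of the samples and their effects cannot be told apart. Which region came from which organoid is not given in the sources used here, and p-values measure only the spread between the regions.

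The distal side was read less deeply. Size factors read from the lowest means summed to 2.93 for the distal and 9.65 for the proximal regions, which corresponds to 46991 to 118978 counts per distal region and 214774 to 345649 per proximal region. At this depth 3 counts correspond to 1.02 normalized counts for distal and to 0.311 for proximal. The 12 limb mesenchyme markers were all in the table, with summed normalized means of 736 in distal and 683 in proximal. Of these 12, Msx1 and Lhx2 were called higher in distal, and Tbx5 and Pdgfra higher in proximal. Of 16 skeletal muscle markers 14 were present (not Myf6 and Tnnc2), and their sum was 17.1 in distal and 155 in proximal. Of 10 surface ectoderm markers 4 were present, all 4 at 3 counts or fewer in distal and 3 of them on both sides. Of 12 endothelium and blood markers 7 were present, 6 of them at 3 counts or fewer in distal and 4 on both sides, so neither list gives a direction. Krt5, Krt8, Krt15, Krt18, Fgf8 and Esrp1 of the ectoderm, and, among the endothelium and blood markers, Tek, Cldn5 and the globins Hbb-bt and Hba-a1, were not in the table.

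The question was whether replication genes differed between the sides. Mcm6, a subunit of the replicative helicase, was the 1 member called at an adjusted p under 0.05, and it was higher in distal. That is 1 of 55 members called higher in distal against 0.395% of all genes, and 0 of 55 called higher in proximal against 0.582% of all genes. The other 54 members were not called, but their changes leaned one way: the authors' deposited table gave 49 of the 55 a positive log2 change (89.1%), against 54.5% of all genes. Without the 3 members of a mean under 1, whose counts are too few to give a direction (Fen1, Gins2 and Rfc4), 46 of 52 were positive (88.5%), against 47.0% of all genes at a mean of 1 or more. Of the 55, 4 turned to a negative sign when changes were centred on the median of all genes. Their median log2 change in the authors' deposited table was 0.39 and that of all genes was 0.07. Log2 changes of thinly counted genes take few values, so the members counted at a mean of 10 or more were also looked at alone. Of these, 29 of 31 members (93.5%) were positive with a median of 0.37 in the authors' deposited table, against 50.6% and a median of 0.00 for the 3757 genes at that depth.

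At an unadjusted p under 0.05, the authors' deposited table held 11 members higher in distal and 1 higher in proximal, where 2.56% and 3.51% of all genes met those limits. The 11 were Mcm6, Gmnn, Mcm2, Mcm4, Mcm10, Gins1, Pcna, Pold1, Rrm2, Uhrf1 and Dnmt1, and the 1 in the other direction was Orc5. Among the members at a mean of 10 or more, 7 of 31 met the limit towards distal and 0 towards proximal, against 6.41% and 5.59% of genes at that depth. The members shared the same regions and libraries, so their agreement in sign is not 55 separate observations. The list was also chosen with earlier results of these data known, so its shares beside those of all genes are a description and not a test. Summed over all members, the computed counts were 3196 of 419309 in distal and 8187 of 1378118 in proximal. The members' share of all counts was thus 0.762% in distal (95% Wilson interval 0.736 to 0.789%) and 0.594% in proximal (0.581 to 0.607%), a ratio of 1.28 (1.26 without Mcm6). These intervals cover counting error only and not the spread between regions. In sections, fewer cells in S phase and less of these mRNAs per cell cannot be told apart.

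**Figure D1:**
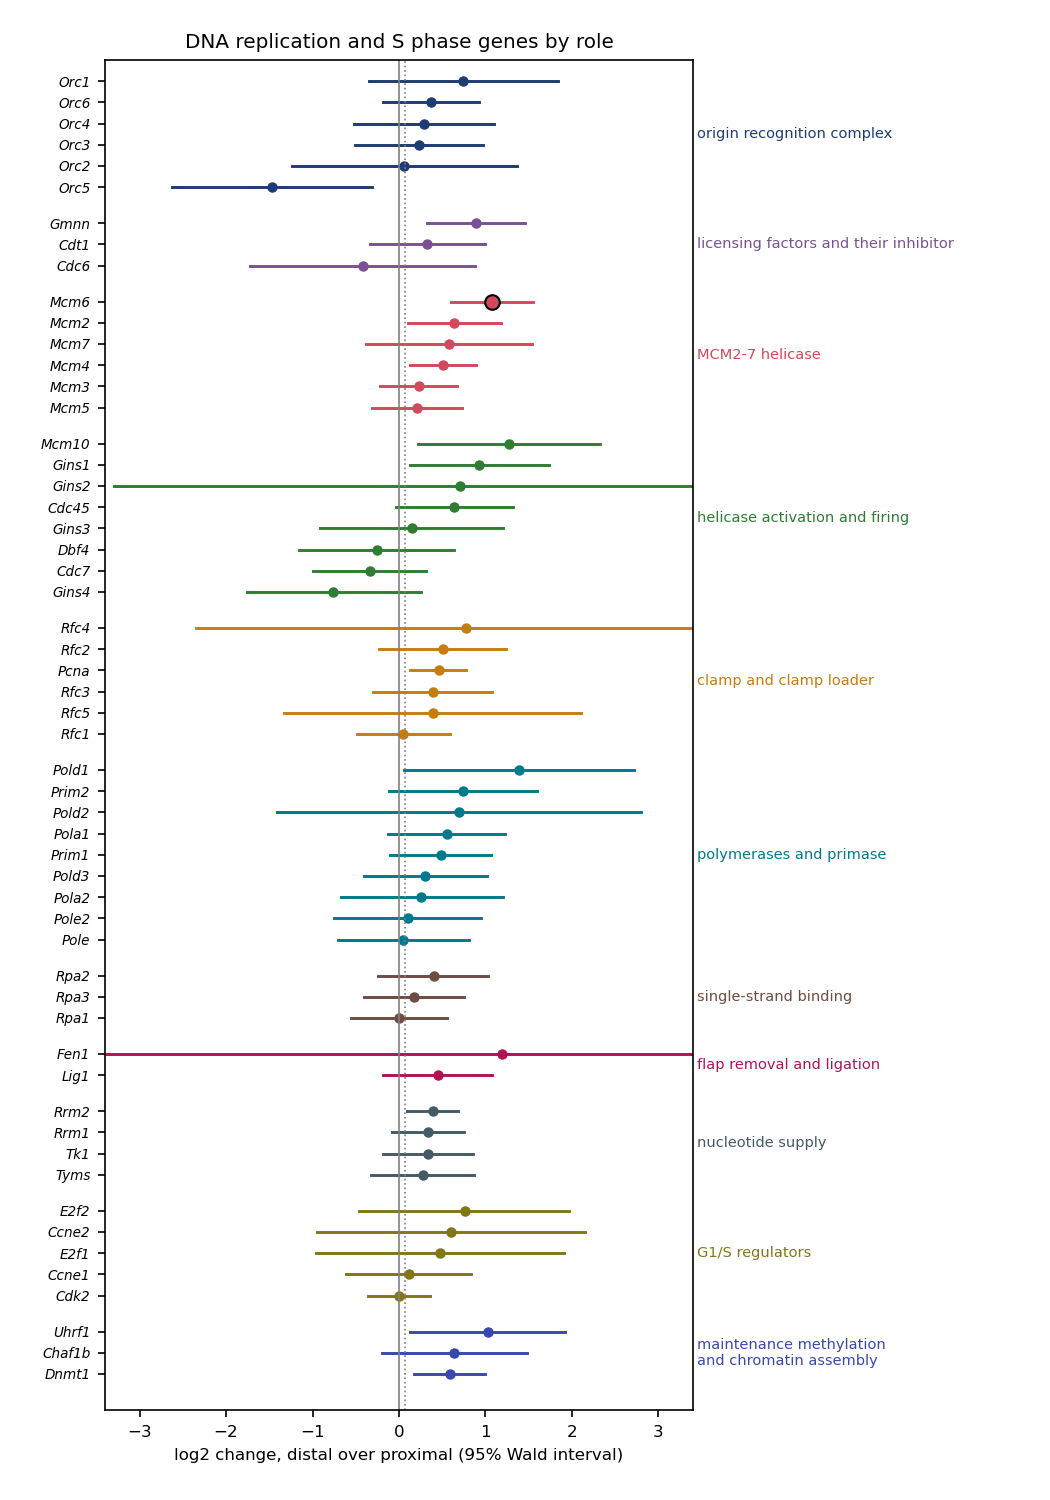
Log2 change of the 55 detected members, distal over proximal, grouped by role; points are the values of the deposited table and lines their 95% Wald intervals, drawn to the edge of the plot where they run past it. The ringed point is Mcm6, the called member, the solid line marks 0 and the dotted line the median of all genes (0.07); most points lie right of both lines, and Orc5 lies farthest left at -1.47.

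The MCM2-7 helicase is the ring of 6 subunits that unwinds DNA ahead of the fork. Its 6 log2 changes were all positive, 3 of 6 at an unadjusted p under 0.05 and 1 of 6 called. All 6 had a mean of 10 or more, where 50.6% of genes were positive and 6.41% met the unadjusted limit towards distal. Of all genes, 0.395% were called higher in distal. Mcm6 (ENSMUSG00000026355, GRCm38 chromosome 1, 128331590 to 128359664, minus strand) was computed at 52.8 normalized counts in distal and 25.1 in proximal, from about 155 and 242 counts. Its log2 change in the authors' deposited table was 1.07 ± 0.24 (SE), adjusted p = 0.00199, which is 2.11-fold higher in distal with a 95% Wald interval of 1.51 to 2.93. The side means of Mcm6 were computed from this log2 change, so they are not a second result.

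The other subunits lay between Mcm6 and equality. Mcm2 had means of 26.7 in distal and 17.2 in proximal, with a log2 change of 0.64 ± 0.27 (SE) and adjusted p = 0.594 in the authors' deposited table. For Mcm4, the most deeply counted subunit, the means were 66.2 and 46.6, with 0.51 ± 0.19 and adjusted p = 0.366 in the authors' deposited table. Mcm7 stood at 12.2 and 8.19, Mcm3 at 30 and 25.6 and Mcm5 at 25.5 and 22. None of these 5 was called, although the proteins form 1 complex with Mcm6. On the log2 scale the interval was 0.60 to 1.55 for Mcm6, -0.22 to 0.67 for Mcm3 and -0.31 to 0.73 for Mcm5. Overlap of such intervals does not show that subunits were equal, and the difference between subunits was not tested. Summed over the 6 subunits the normalized means were 214 in distal and 145 in proximal, a ratio of 1.48.

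The promoters of 3 helicase subunits are shown with those of Cdk2 and Orc5, members whose changes were near 0 and towards proximal. Mcm2, the subunit with the next largest change after Mcm6, is not printed and held no E2F match, and neither did Pcna or Mcm10. They are RefSeq promoters of build GRCm38.p6, 250 bases before to 50 after a start, written 5′ to 3′ on the gene's strand: chr1:128359656-128359955 (minus) for Mcm6, chr8:75109259-75109558 (plus) for Mcm5, chr1:20820263-20820562 (minus) for Mcm3, chr10:128705002-128705301 (minus) for Cdk2 and chr5:22550289-22550588 (minus) for Orc5. Capitals mark letters that match the core of the E2F motif on either strand. Its 4 spellings searched were TTCCCGC as the usual form, then the variant spelling TTCGCGC, and besides these TTGCCGC as well as the form TTGGCGC. Matches were allowed to overlap.
Mcm6: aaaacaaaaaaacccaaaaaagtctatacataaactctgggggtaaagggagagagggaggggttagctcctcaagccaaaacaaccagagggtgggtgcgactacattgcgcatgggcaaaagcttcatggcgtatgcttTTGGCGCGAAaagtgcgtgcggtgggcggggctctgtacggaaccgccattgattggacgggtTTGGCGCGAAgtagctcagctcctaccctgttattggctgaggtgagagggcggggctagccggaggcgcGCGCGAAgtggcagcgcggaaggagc
Mcm5: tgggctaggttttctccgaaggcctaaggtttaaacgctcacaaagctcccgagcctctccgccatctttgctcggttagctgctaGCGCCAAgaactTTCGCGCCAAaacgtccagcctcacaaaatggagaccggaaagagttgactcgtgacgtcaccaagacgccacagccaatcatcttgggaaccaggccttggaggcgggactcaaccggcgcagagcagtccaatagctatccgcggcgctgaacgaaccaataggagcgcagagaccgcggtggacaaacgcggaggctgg
Mcm3: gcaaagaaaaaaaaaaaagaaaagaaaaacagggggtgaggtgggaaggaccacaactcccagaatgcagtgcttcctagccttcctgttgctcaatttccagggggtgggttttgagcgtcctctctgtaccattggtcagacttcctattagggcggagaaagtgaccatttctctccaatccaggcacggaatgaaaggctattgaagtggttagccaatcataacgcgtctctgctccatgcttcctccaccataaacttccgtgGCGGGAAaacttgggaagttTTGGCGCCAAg
Cdk2: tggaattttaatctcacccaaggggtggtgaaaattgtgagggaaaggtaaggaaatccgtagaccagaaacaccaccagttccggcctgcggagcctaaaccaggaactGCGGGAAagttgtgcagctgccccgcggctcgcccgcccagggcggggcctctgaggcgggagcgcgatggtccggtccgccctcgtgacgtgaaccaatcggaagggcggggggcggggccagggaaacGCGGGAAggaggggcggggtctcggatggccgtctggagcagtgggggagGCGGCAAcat
Orc5: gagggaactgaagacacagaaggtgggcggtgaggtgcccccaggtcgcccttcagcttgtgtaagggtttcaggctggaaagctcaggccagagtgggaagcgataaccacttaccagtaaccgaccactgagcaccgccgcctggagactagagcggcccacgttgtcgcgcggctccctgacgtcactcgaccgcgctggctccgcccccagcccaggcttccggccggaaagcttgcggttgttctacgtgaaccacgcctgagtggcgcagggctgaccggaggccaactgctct

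Mcm6 held 5 matches in 3 stretches, Mcm5 and Mcm3 each 3 matches in 2 stretches, Cdk2 3 matches in 3 stretches and Orc5 none. Of the 56 genes 47 had a promoter in the RefSeq table (missing were Gins1, Gins2, Gins4, Gmnn, Mcm4, Rfc2, Prim2, Pole and Ccne2), and 31 of the 47 (66.0%) held at least 1 E2F match. By promoter, 35 of the members' 60 promoters held a match (58.3%), against 9.57% of the 32851 promoters in the table. Among genes of the comparison, 18.8% held one. CCAAT on either strand, the core of the NF-Y motif, was in 28 of the 47 members (59.6%), against 43.0% of genes of the comparison. A match is a run of letters, not a bound site. The 30 detected members with an E2F match had a median log2 change of 0.39, and the 16 without one a median of 0.35. For CCAAT, the 27 detected members with a match had a median of 0.40 and the 19 without one a median of 0.30. At an unadjusted p under 0.05 towards distal were 7 of the 27 and 1 of the 19. For E2F they were 5 of the 30 with a match and 3 of the 16 without one. Neither split was tested, and Gmnn, Mcm4 and Gins1, which also met that limit, had no promoter to search.

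The proteins that load the helicase varied in direction. Gmnn encodes geminin, which binds Cdt1 and prevents a second loading within the cycle. Its computed means were 22.3 in distal and 12 in proximal, and the authors' deposited table gave a log2 change of 0.89 ± 0.29 (SE) with an unadjusted p of 0.00219 and adjusted p = 0.16. Of the 54 uncalled members it had the lowest p. Cdt1 itself stood at 15.2 and 12.1, and Cdc6, the ATPase that works with it, at 3.74 and 5 from about 10.9 distal and 48.3 proximal counts.

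Within the origin recognition complex, which marks origins for loading, Orc5 (ENSMUSG00000029012) had the opposite sign to the other subunits. About 9.05 distal and 82.7 proximal counts were computed for it, giving means of 3.09 and 8.57. Its log2 change in the authors' deposited table was -1.47 ± 0.59 (SE), with an unadjusted p of 0.0128 and adjusted p = 0.472. Thus Orc5 was 0.361 times its proximal level in distal, with a wide 95% Wald interval of 0.162 to 0.805, and it was not called. For the other 5 subunits the authors' deposited table gave log2 changes above 0, from 0.06 for Orc2 (-0.00529 when centred on the median of all genes) to 0.74 for Orc1, a subunit whose level follows the cell cycle. Orc1 stood at 5.58 in distal and 3.34 in proximal, Orc6 at 22.8 and 17.6, Orc3 at 10.9 and 9.31, and Orc4 at 13.1 and 10.7.

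Genes of helicase activation had 5 of 8 log2 changes positive, with Gins2 too thinly counted to give a direction, and 3 negative. Mcm10, which helps the loaded helicase to start moving, had means of 6.82 in distal and 2.83 in proximal from about 20.0 and 27.3 counts. Its log2 change in the authors' deposited table was 1.27 ± 0.53 (SE), with adjusted p = 0.554. Gins1, a subunit of GINS, stood at 12.2 and 6.41, with 0.93 ± 0.41 and adjusted p = 0.629 in the authors' deposited table. Both lay above their proximal level by more than 1.96 standard errors, yet neither was called.

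Both subunits of the kinase that fires origins had negative log2 changes. Cdc7 had means of 12.0 in distal and 15.3 in proximal, and Dbf4, its activating subunit, 7.65 and 9.17. The changes were -0.34 ± 0.34 (SE) for Cdc7 and -0.26 ± 0.46 for Dbf4 in the authors' deposited table, within 1.96 standard errors of 0. Gins4 was also lower in the distal mean, 5.71 against 9.63, with -0.76 ± 0.51 in the authors' deposited table. Gins1 and Gins4 encode partners in the same complex and had opposite signs, and neither differed at the adjusted limit. Gins3 stood at 4.90 and 4.43 and Cdc45, which joins GINS on the helicase, at 17.2 and 11.

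Pcna, the sliding clamp that holds polymerases on DNA, was the most deeply counted member. Its computed means were 117 in distal and 84.9 in proximal, from about 341 and 820 counts. The log2 change in the authors' deposited table was 0.46 ± 0.17 (SE), with an unadjusted p of 0.00596 and adjusted p = 0.295. Of the clamp loader subunits, Rfc2 stood at 12.8 and 9.03, Rfc3 at 15.6 and 11.9, Rfc5 at 1.98 and 1.51 and Rfc1, the large subunit, at 26.8 and 25.8. Rfc1 was close to equal on both sides, with a log2 interval of -0.49 to 0.59. The genes of the clamp and its loader other than Rfc4, which was too thinly counted to give a direction, had positive values, although Rfc1 turned to -0.0154 when centred on the median of all genes, and 0 were called.

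**Figure D2:**
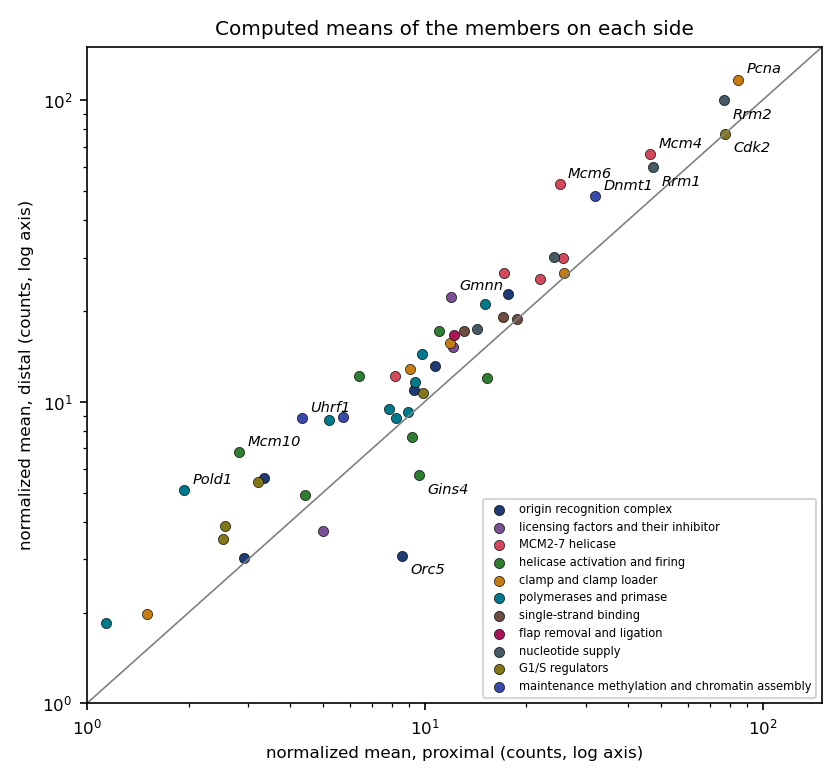
Computed normalized mean of each member in distal (vertical, log axis) against proximal (horizontal, log axis), for the 52 members with a mean of at least 1, coloured by role; the line marks equality. Most members lie above the line, farthest of all Pold1 at 5.09 against 1.94 and Mcm10 at 6.82 against 2.83, both thinly counted. Mcm6, the called member, lies above it at 52.8 against 25.1, Cdk2 lies on it and Orc5 well below it.

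All 9 polymerase and primase genes had positive log2 changes (Pole turned to -0.0167 when changes were centred on the median of all genes), and none was called. Pold1, the catalytic subunit of the lagging-strand polymerase delta, had the largest in the authors' deposited table, 1.39 ± 0.68 (SE) with adjusted p = 0.84. It rested on about 14.9 distal and 18.7 proximal counts, with means of 5.09 and 1.94. The smallest was that of Pole, the catalytic subunit of the leading-strand polymerase epsilon, at 9.22 and 8.90. The primase subunits were both higher in the distal mean: Prim1 stood at 21.1 and 15.1 and Prim2 at 8.69 and 5.22. Pola1, their partner polymerase, had means of 14.4 and 9.83, and Pola2 9.44 and 7.86. Pold2, Pold3 and Pole2 had 1.85 and 1.14, 11.6 and 9.37, and 8.80 and 8.21.

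RPA, the complex that coats single-stranded DNA at the fork, had 0 of 3 genes past an unadjusted p of 0.05. Rpa1 had a mean of 18.8 on both sides, with a log2 interval of -0.55 to 0.55. Rpa2 stood at 17.2 in distal and 13.1 in proximal, and Rpa3 at 19.1 and 17.0. The ligase Lig1, which seals Okazaki fragments, stood at 16.7 and 12.2. Its log2 interval ran from -0.19 to 1.08 and so included 0.

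The 4 enzymes of nucleotide supply all had small positive log2 changes, and none was called. Rrm2, the S phase subunit of ribonucleotide reductase, was at 100 in distal and 76.9 in proximal from about 294 and 743 counts. Its log2 change in the authors' deposited table was 0.39 ± 0.15 (SE), the smallest standard error of any member, with adjusted p = 0.394. The 4 log2 changes in the authors' deposited table lay between 0.28 for Tyms, thymidylate synthase, and 0.39 for Rrm2. Rrm1 stood at 60 and 47.5, the thymidine kinase Tk1 at 30.3 and 24.1 and Tyms at 17.4 and 14.3. Rrm2 has a near-identical copy, Gm48455, at 96.7% identity over its last 300 bases, so reads could be divided between loci.

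Of the 5 kinase, cyclin and E2F genes that open S phase, 0 met an unadjusted p of 0.05. Cdk2 had a mean of 77.5 in distal and 77.4 in proximal from about 227 and 748 counts. Its log2 change in the authors' deposited table was 0.00 ± 0.19 (SE), and the 95% Wald interval of the fold, 0.779 to 1.29, excludes a change of the size seen for Mcm6. The cyclin genes stood at 10.7 and 9.92 for Ccne1 and at 3.87 and 2.56 for Ccne2. E2f1 and E2f2, which encode activating E2F factors, were counted thinly, at 3.52 and 2.53 and at 5.41 and 3.20, and no direction was detectable at this depth.

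The genes that restore methylation and chromatin behind the fork had a median log2 change of 0.64. Dnmt1, the maintenance methyltransferase, had means of 48.1 in distal and 32 in proximal, and a log2 change of 0.59 ± 0.21 (SE) with an unadjusted p of 0.00542 and adjusted p = 0.282 in the authors' deposited table. Uhrf1, which brings Dnmt1 to newly copied DNA, stood at 8.81 and 4.32, with 1.03 ± 0.46 and adjusted p = 0.65 in the authors' deposited table. Chaf1b, the middle subunit of CAF-1, stood at 8.93 and 5.73. The 3 detected genes of this role were all higher in the distal mean, and none was called. Of them 2 met an unadjusted p under 0.05, as did 2.56% of all genes towards distal.

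**Figure D3:**
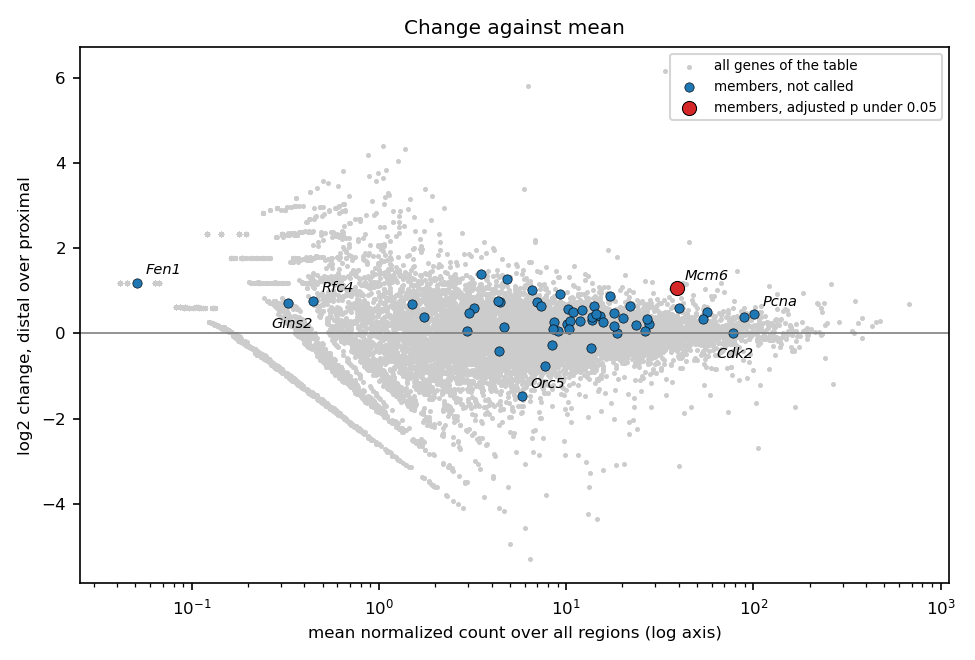
Log2 change, distal over proximal, against the mean normalized count (log axis) for all 13916 genes (grey) and the 55 members (blue, or red where called). Members at a mean of 10 or more mostly lie above 0, with Mcm6 at its upper edge, and Fen1, Gins2 and Rfc4 lie at the left, where log2 changes fall on lines set by a few counts.

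For 3 members the counts were too few to give a direction. Region counts could be recovered from their means: Fen1 had 0 counts in distal and 1 in proximal, Gins2 1 and 3, and Rfc4 2 and 4. Fen1, the nuclease that trims Okazaki fragments, was therefore next to undetected, with a mean of 0.0511 in the authors' deposited table. No fold is given for Fen1 and Gins2, since both sides held 3 counts or fewer. The positive log2 change of Fen1 in the authors' deposited table, 1.19, belongs to a gene whose 1 count was proximal, and its sign carries no direction.

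Several thinly counted members shared a feature of position, among them 5 of the 6 with the lowest means. In GENCODE M21 (GRCm38), 9 of the 56 genes have an exon of another gene on the opposite strand over the last 500 bases of their longest coding transcript. They are Chaf1a (all 500 bases, opposite Ubxn6), Gins2 (500, Gse1), Orc2 (500, Nif3l1), Rfc5 (499, Wsb2), Orc4 (446, Acvr2a), Fen1 (443, Gm10143), Ccne2 (408, Ints8), Rfc4 (186, Eif4a2) and Mcm7 (64, Cops6). The 8 of them in the table had a median mean of 2.36, from 0.0511 to 11.9, while the 46 members with no overlap on either strand had a median of 13.7, from 1.5 to 101. The 3 members with 3 counts or fewer in distal, and Chaf1a, are all among the 9. These means are not scaled to transcript length and describe how deeply a gene was counted.

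**Figure D4:**
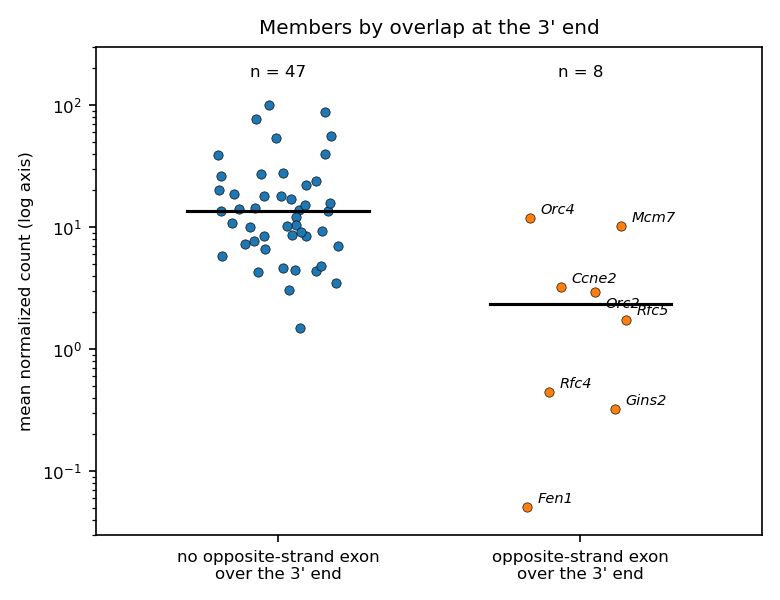
Mean normalized count (log axis) of the detected members with and without an exon of another gene on the opposite strand over the last 500 bases; each point is a gene and each bar the median. The 8 genes with an overlap lie between 0.0511 and 11.9, and the 47 without lie between 1.5 and 101.

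Over all coding genes of that annotation, those with an opposite-strand overlap had a median mean of 1.74 and those with none one of 3.71, and the table listed 63.8% of the former and 64.1% of the latter. Whether the authors counted by strand is not given in the sources used here, so reads of these members and of their opposite neighbours may not be separable, and the part of the overlap in the low values was not tested. Pole2 overlaps Gm49384 on its own strand over 245 bases, and Mcm7 has a copy, Gm5487, at 99.3% identity, so both values are uncertain. Mcm6 has neither an overlap nor a copy by these definitions. For the 45 members free of both, the median log2 change was 0.39, with 10 at an unadjusted p under 0.05 towards distal and 1 called.

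Of 46 further replication genes 44 were in the table and 0 were called in either direction. At an unadjusted p under 0.05, 3 were higher in distal and 0 in proximal, against 2.56% and 3.51% of all genes. Among the 25 at a mean of 10 or more, 18 (72.0%) had positive log2 changes with a median of 0.18. Among the 3 were Exo1, an exonuclease, at 15.7 in distal and 8.31 in proximal, and Tipin, a fork protection factor, at 29.0 and 20.4. Of 20 mitosis genes 19 were in the table and 0 were called, and 9 of the 15 at a mean of 10 or more were positive, with a median of 0.10. Kif11, the spindle motor, was the 1 mitosis gene at an unadjusted p under 0.05, at 22.9 and 12.8. Whether the members differ from these lists was not tested.

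Upstream of the members, 2 of 16 E2F, RB and G1 regulators were called, both higher in distal, against 0.395% of all genes. The list as a whole had 9 positive and 7 negative log2 changes (56.2% positive, against 54.5% of all genes), with a median of 0.12. At a mean of 10 or more, 8 of 9 were positive. Ccnd2, a D cyclin that starts the passage from G1 to S, had means of 297 in distal and 180 in proximal, with a log2 change of 0.73 ± 0.13 (SE) and adjusted p = 1.85e-05 in the authors' deposited table. Cdk6, a kinase partner of D cyclins, stood at 37.1 and 15.8, with 1.23 ± 0.25 and adjusted p = 0.000263 in the authors' deposited table. Cdk4, the other partner, was near equality at 85.1 and 81.1. The 7 CDK inhibitors, which oppose these kinases, were all in the table and 0 were called. In the authors' deposited table their log2 changes were below 0 in 6 of 7 cases, where 6328 of all 13916 genes were. Among the 6 were Cdkn1c at -0.23 ± 0.48 (SE) and Cdkn1b at -0.16 ± 0.23, and none passed an unadjusted p of 0.05. Of the 7, 3 held 3 counts or fewer in distal, 1 of them on both sides, so the signs of this list give no direction.

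**Figure D5:**
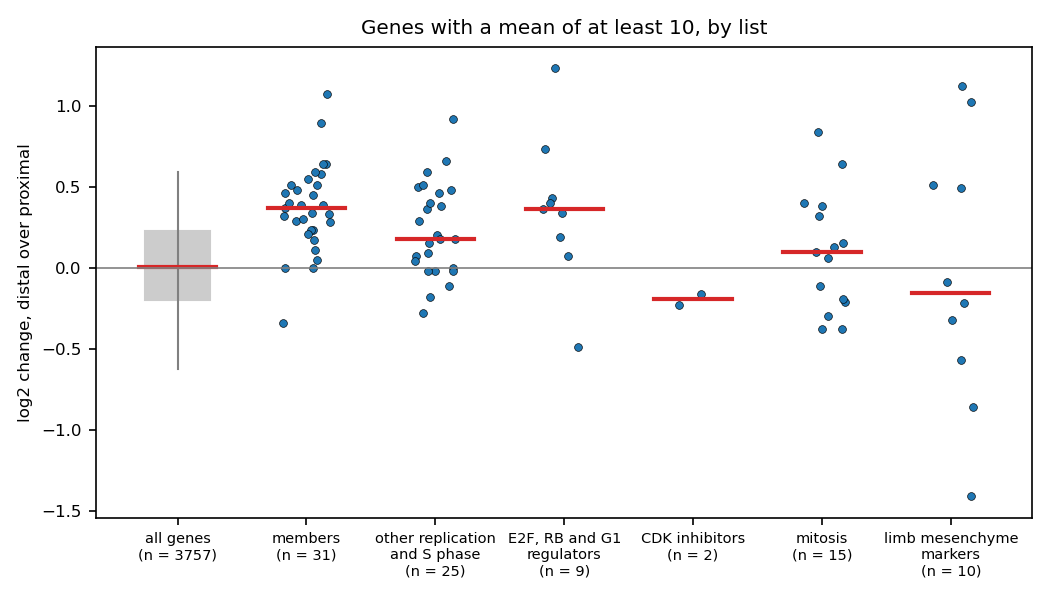
Log2 change, distal over proximal, of genes at a mean of 10 or more in each list; points are genes, red bars medians, and for all genes the grey box spans the quartiles and the line the 5th to 95th percentile. The 31 members have a median of 0.37, the 25 further replication genes 0.18, the 15 mitosis genes 0.10 and all 3757 genes 0.00.

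Muscle markers differed between the sides in the opposite direction. Among the 14 detected, 6 were called, all higher in proximal, against 0.582% of all genes. The 14 had a median log2 change of -2.84, and 10 of the 14 held 3 counts or fewer in distal. Their summed level was 17.1 in distal and 155 in proximal. The summed level of the members was 1092 in distal and 848 in proximal. The part of muscle cells, or of depth, in the members' differences was not tested.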

How the data were processed

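The members and gene lists were chosen with earlier results of these data known. The file analysed holds the result of the authors' test between 5 distal and 5 proximal barcoded regions, by protein-coding gene. Per the file headers, the authors deposited a mean signal in units of normalized counts, a log2 change with its standard error, a statistic (a score equal to their ratio), and a p-value before and after adjustment. Per the file headers, the authors' columns are laid out as in a DESeq2 results table. The submitters' processing notes name mm10 and GRCm38. The aligner and the counting are not given in the sources used here.

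No model was refitted, since the table holds no value per region. Genes were called at the authors' adjusted p below 0.05, and Wald intervals are the log2 change ± 1.96 standard errors. Size factors were read from steps that at least 20 low genes shared, and sides from the contrast. Side means and side counts follow from a gene's mean, its log2 change and both sums of size factors. Of 4624 genes whose mean was at most 1.2, region counts came out for 4612. Of these, 1019 genes with at least 8 counts in all and 1 or more on each side gave a median absolute error of 0.224 distal and 0.772 proximal counts. Side values of genes with a count on only 1 side are not covered by that check. On simulated data, all 10 size factors and sides were recovered, and over the 10041 genes at a mean of 1 or more the median error was 3.47% of the counts plus 1 in distal and 2.84% in proximal. Overlaps and copies used GENCODE M21 and BLAST 2.17.0 (at least 200 aligned bases at 95% identity). Nearly all members are given by their side means. Named in more detail were members past an adjusted or unadjusted p of 0.05, the 5 highest means, the largest and smallest log2 change of each role, members at 3 counts or fewer on a side, and called genes of other lists. Other names (Exo1, Tipin, Kif11, Cdk4, 2 CDK inhibitors, the promoters printed) were chosen after their values were seen. Some single genes of these lists are not reported here. Python 3.11.15, pandas 2.3.3 and SciPy 1.17.1 were used.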

Additional observations from a re-analysis of the deposited data

How the results depend on the processing

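Mcm6 alone was called, higher in distal, under each of 8 alternatives: thresholds of 0.01 and 0.1, adjustment over all listed genes or over those at a mean of 10 or more, a log2 change of at least 1 as well, and centring on the median of all genes, of genes above the median mean or of unlisted genes at a mean of 10 or more. It was also the 1 call among members without an overlap or copy. The 11 members at an unadjusted p under 0.05 towards distal became 10 or 11 under centring, 10 without members that have an overlap or copy, and 6 at a limit of 0.01, since that limit is stricter. That check and those of the 11 were chosen after seeing the data. The median log2 change of 0.388 ranged from 0.32 to 0.447 over 19 alternatives. Of these, centring on unlisted genes and leaving out members with an overlap or copy (0.387 each) were also chosen after seeing the data. Centring on all genes turned the sign of Orc2 (-0.00529), Rfc1 (-0.0154), Pole (-0.0167) and Cdk2 (-0.0655), and centring on genes above the median mean that of Rpa1 (0.0145), all values near 0. No paired analysis was possible because only summary statistics of the 2 libraries were used, and leaving out each region was not run for the same reason. Depth limits the distal side most, where members with a mean under 5 rest on about 20 counts or fewer.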

Other observations

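Of 23 genes in the table whose symbols carry a histone cluster prefix, 15 stood at 3 counts or fewer on both sides and 0 were called. The largest means were those of H1f0, a replacement linker histone not tied to S phase, at 149 in the authors' deposited table, and H1f2 at 17.4.

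At a mean of 10 or more, 25 of 31 members (80.6%) had a log2 change over 0.2, against 27.3% of the 3757 genes at that depth, and 21 of the 31 lay between 0.2 and 0.6. The median standard error of these 31 was 0.296, and 7 of them met an unadjusted p under 0.05 towards distal. Of the 21 members with a mean from 1 to under 10, 17 had a positive log2 change (81.0%), against 44.7% of the 5847 genes in that range.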
